A study of Mus musculus with 145 samples.

Results

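The genes described here are the 2 subunits of calprotectin, S100a8 and S100a9, and 8 genes of neutrophil surface receptors and granules: Csf3r, Cxcr2, Fpr1, Fpr2, Clec4d, Clec4e, Trem1 and Mmp8. They and the gene lists used below were chosen by name, with earlier results of these data known. The shares of all genes given beside them are therefore a background and not an independent test. All 10 were found among the 55416 genes of the count table through their Ensembl identifiers. RNA was measured in dorsal skin of mice that had a sham exposure or a single dose of 5, 10, 20 or 40 mJ/cm2 under the 8 lamps of a tanning canopy, which gave 96.4% UVA and 3.6% UVB. Skin was taken at 0, 6, 24, 48, 72 and 96 h, which makes 30 groups and 145 libraries, each from a separate animal. Each group held 5 animals, except 20 mJ/cm2 at 48 h and the 4 irradiated groups at 96 h, which held 4. The labels give no genotype, strain, sex or age. In whole skin, more or fewer cells of a type and more or less RNA per cell cannot be told apart.

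Calprotectin is a complex of the proteins S100A8 and S100A9, which bind calcium and zinc, and it is among the most abundant proteins of the neutrophil cytosol. Keratinocytes can also make both subunits in inflamed skin. Neutrophils are born under the control of G-CSF, leave the blood along gradients of CXC chemokines and formylated peptides, and carry lectin and TREM receptors that amplify their response. Csf3r, Cxcr2, the formyl peptide receptors, the lectins and TREM1 are also found to different degrees on monocytes and macrophages.

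The sequence upstream of the start site was looked up for every gene, because the 10 genes moved together at 40 mJ/cm2 and lie on 6 chromosomes. RefSeq windows on GRCm38.p6, a build other than the GRCm39 of the count table, were matched by symbol for all 10. The 250 bases before the start were searched on both strands for 4 motifs: TGANTCA (AP-1), TTGCNNAA (C/EBP), GAGGAA (the core of PU.1 sites) and TTCNNNGAA (STAT). The motifs can overlap. The windows of S100a8 (chr3:90668821-90669070, plus strand), S100a9 (chr3:90695722-90695971, minus strand), Csf3r (chr4:126024409-126024658, plus strand), Clec4e (chr6:123289872-123290121, minus strand) and Trem1 (chr17:48232489-48232738, plus strand) are shown 5′ to 3′. They are the 2 calprotectin subunits, the receptor with the highest level, and the 2 genes with matches next to each other. Capitals mark the matches.
S100a8: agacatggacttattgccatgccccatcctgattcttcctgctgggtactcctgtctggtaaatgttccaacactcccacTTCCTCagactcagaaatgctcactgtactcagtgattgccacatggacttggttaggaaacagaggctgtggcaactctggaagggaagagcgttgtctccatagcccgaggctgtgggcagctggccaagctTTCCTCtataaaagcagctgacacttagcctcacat
S100a9: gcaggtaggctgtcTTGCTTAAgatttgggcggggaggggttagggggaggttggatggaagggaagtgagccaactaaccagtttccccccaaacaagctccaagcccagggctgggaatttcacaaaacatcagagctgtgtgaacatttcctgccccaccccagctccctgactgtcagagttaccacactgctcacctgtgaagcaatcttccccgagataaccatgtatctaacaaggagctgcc
Csf3r: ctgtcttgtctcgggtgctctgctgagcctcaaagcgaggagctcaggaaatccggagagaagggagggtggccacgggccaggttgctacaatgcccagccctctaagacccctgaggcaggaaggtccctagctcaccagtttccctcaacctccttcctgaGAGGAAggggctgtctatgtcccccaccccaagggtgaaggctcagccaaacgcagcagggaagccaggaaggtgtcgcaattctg
Clec4e: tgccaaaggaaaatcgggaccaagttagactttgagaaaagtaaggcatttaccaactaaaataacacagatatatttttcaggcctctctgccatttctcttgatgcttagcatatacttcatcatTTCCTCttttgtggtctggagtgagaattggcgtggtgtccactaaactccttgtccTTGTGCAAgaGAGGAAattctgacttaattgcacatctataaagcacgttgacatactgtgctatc
Trem1: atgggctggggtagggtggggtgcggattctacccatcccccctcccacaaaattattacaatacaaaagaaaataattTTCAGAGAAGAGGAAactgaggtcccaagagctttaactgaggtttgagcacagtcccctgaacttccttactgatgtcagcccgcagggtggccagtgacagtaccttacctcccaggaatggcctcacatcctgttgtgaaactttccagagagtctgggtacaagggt

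GAGGAA or its reverse complement TTCCTC was in the windows of 8 of the 10 genes, all but S100a9 and Fpr1, against 23.25% of all 32851 windows. TTGCNNAA was in 3 (S100a9, Clec4e and Mmp8), against 9.56% of all windows, and TTCNNNGAA in 2 (Fpr2 and Trem1), against 7.02%. TGANTCA was in none of the 10, against 6.75% of all windows. In S100a8 the nearer match lay 36 to 31 bases before the start, and in S100a9 the only match lay 236 to 229 bases before it. In Trem1 the STAT match ran from 171 to 163 bases before the start and the PU.1 match from 162 to 157. In Clec4e the C/EBP match (66 to 59) and a PU.1 match (56 to 51) lay 2 bases apart. These matches describe letters in the windows and say nothing of binding.

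The median library held 11.1 M counts (M for mega) and the largest 64.6 M, while the 2 smallest had 0.18 and 0.204 M. Levels are given as CPM, counts per M counts after TMM scaling of library sizes. All 10 genes passed the filter on low counts, which left 18677 genes for testing. Fpr1 and Trem1 were near the limit of detection: Fpr1 had no count in 48 of the 145 libraries and Trem1 in 69. The 9 keratin, cornified envelope and collagen genes that mark skin summed to 33875 to 68343 CPM in the sham and 40 mJ/cm2 libraries at 48 h. Library titles end in R1_001 (71 libraries) or R1 (74), whose meaning is not given, and the ending was a term in every main fit. Fold changes are log2 values from edgeR's quasi-likelihood test, given with a standard error. That error was worked back from the test, as the absolute fold change divided by the square root of the F statistic. A gene was called at a Benjamini-Hochberg adjusted p under 0.05 over all genes tested. DESeq2 was run beside it for the doses against sham.

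At 48 h after 40 mJ/cm2 all 10 genes rose against sham, where 3.97% of all genes tested were called higher. S100a8 and S100a9 were called at 40.3-fold and 47.7-fold, and the receptor and granule genes at 6.51-fold (Fpr2) to 65.5-fold (Clec4d). The median log2 fold change of the 10 genes was 4.84, beside -0.01 for all genes tested. At 72 h all 10 again rose, where 1.04% of all genes were called higher, with the same 2 of the 5 irradiated animals highest for all 10. At 5, 10 and 20 mJ/cm2 no member was called against sham at any time. The heat map of group means and the plot of single libraries show both features.

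**Figure D1:**
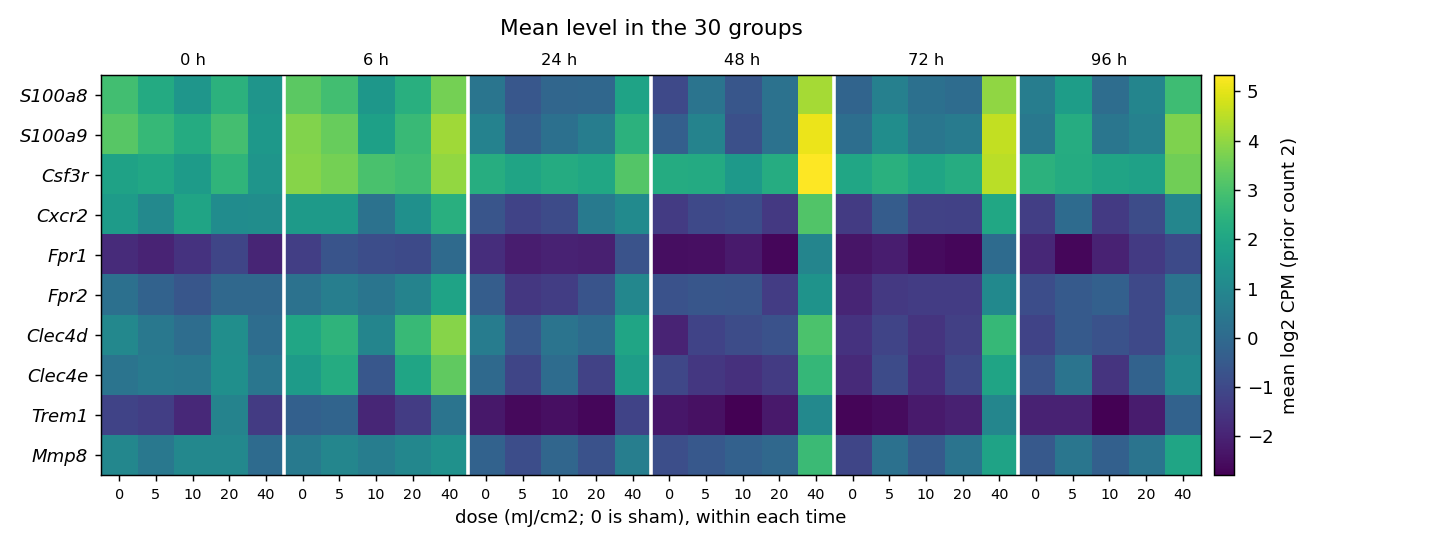
Mean log2 CPM (prior count 2) of the 10 genes, in rows, in the 30 groups, in columns ordered by time and within each time by dose (0 is sham). The brightest cells from 24 h on are those of 40 mJ/cm2, and at 6 h most genes were also bright in sham and 5 mJ/cm2 skin.

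The calprotectin subunits are taken first. In sham skin at 48 h S100a8 stood at 0, 0.68, 0.142, 0.178 and 2.84 CPM in the 5 animals, and after 40 mJ/cm2 at 4.45, 3.66, 50.8, 50.7 and 54.7 CPM. Every irradiated animal lay above every sham animal, and the irradiated animals formed a low pair and a high group of 3. The log2 fold change of S100a8 was 5.33 ± 0.92 (edgeR adjusted p = 0.000699).

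S100a9 ran from 0.265 to 4.44 CPM in the sham animals at 48 h and stood at 9.85, 6.17, 99.5, 82.4 and 86.6 CPM after 40 mJ/cm2. Its log2 fold change was 5.58 ± 0.94 (edgeR adjusted p = 0.000599). The same 2 animals were low and the same 3 high as for S100a8. S100a9 exceeded S100a8 by 1.73 times in group means at 40 mJ/cm2 and 48 h, and by 2.17 times at 72 h, while over the other sham and 40 mJ/cm2 groups from 0 h to 96 h this ratio ran from 1.16 to 2.04. Sham replicate 5 at 48 h stood apart from the other 4 shams for S100a9, and without it the log2 fold change was 6.99.

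Csf3r, the receptor of G-CSF, had the highest level per length among the 8 receptor and granule genes. It stood at 2.12, 3.52, 6.02, 4.34 and 8.63 CPM in sham skin at 48 h and at 15.7, 12.5, 99.8, 71.0 and 75.3 CPM after 40 mJ/cm2. The groups did not overlap, and the log2 fold change was 3.34 ± 0.43 (edgeR adjusted p = 2.92e-05). From 24 to 72 h its means in sham skin and after 5, 10 and 20 mJ/cm2 lay between 2.93 and 6.28 CPM.

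Among the chemoattractant receptors, Cxcr2 binds the CXC chemokines that draw neutrophils. Cxcr2 stood at 0, 0.16, 0.708, 0.0595 and 0.987 CPM in sham skin at 48 h and at 2.54, 2.38, 19.8, 21.0 and 17.4 CPM after 40 mJ/cm2, a log2 fold change of 4.87 ± 0.66 (edgeR adjusted p = 6.75e-05). Fpr1 and Fpr2 sense formylated peptides of bacteria and mitochondria, and Fpr2 also binds lipid and protein ligands such as annexin A1 and serum amyloid A. Fpr1 was at 0 in 3 of 5 sham animals and at most 0.119 CPM in the others, and ran from 0.771 to 3.22 CPM after 40 mJ/cm2 (log2 fold change 4.82 ± 0.75). Fpr2 ran from 0.297 to 0.74 CPM in sham and from 0.836 to 5.35 CPM after 40 mJ/cm2 (2.70 ± 0.58), the smallest rise of the 10. For all 3 receptors every irradiated animal lay above every sham animal.

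Clec4d and Clec4e encode the C-type lectins MCL and Mincle, which bind mycobacterial and fungal glycolipids and, for Mincle, a nuclear protein of dead cells. Clec4d stood at 0, 0.16, 0.142, 0.178 and 0.123 CPM in sham skin at 48 h and at 3.18, 1.74, 21.1, 16.1 and 17.5 CPM after 40 mJ/cm2. Its log2 fold change of 6.03 ± 0.83 was the largest of the 10 at 48 h (edgeR adjusted p = 7.3e-05). Clec4e ran from 0.12 to 1.60 CPM in sham and from 2.06 to 14.2 CPM after 40 mJ/cm2 (4.08 ± 0.66). Trem1, a receptor that amplifies inflammatory signals through an adaptor, was at 0 in 4 of 5 sham animals and at 0.617 CPM in replicate 5. After 40 mJ/cm2 Trem1 stood at 0.477, 0.129, 6.96, 7.12 and 3.76 CPM (5.07 ± 1.03, edgeR adjusted p = 0.00414). Trem1 was the only one of the 10 whose groups overlapped at 48 h, since 2 irradiated animals lay below that sham animal. Of all genes tested, 6.03% had every irradiated animal above every sham animal at 48 h. Without sham replicate 5 no sham library held a Trem1 count, and the 40 mJ/cm2 mean was at least 70.1-fold above a floor of 3 counts over the other 4.

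Mmp8, the collagenase that neutrophils store in granules, stood at 0, 0.32, 1.63, 0.297 and 0.863 CPM in sham skin at 48 h. After 40 mJ/cm2 it stood at 3.50, 3.15, 12.8, 15.4 and 5.82 CPM, above every sham animal (log2 fold change 3.57 ± 0.61, edgeR adjusted p = 0.00063). In mean CPM per kilobase of spliced length after 40 mJ/cm2 at 48 h, the order was S100a9 (109), S100a8 (47.3), Csf3r (15.2), Clec4d (7.45), Cxcr2 (4.14), Mmp8 (3.35), Fpr2 (2.44), Clec4e (1.59), Fpr1 (1.53) and Trem1 (1.23). In sham skin of 48 h it was S100a9 (2.27), Csf3r (1.37), S100a8 (1.11), Fpr2 (0.363), Mmp8 (0.257), Cxcr2 (0.126), Clec4e (0.0982), Clec4d (0.0755), Trem1 (0.0412) and Fpr1 (0.0301). Neighbours in either order lay within each other's spread between animals in most places, and no test was made between genes.

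The 2 low animals at 40 mJ/cm2 and 48 h, replicates 1 and 2, were low for all 10 genes, and both carry the title ending R1_001, while the 3 high animals end in R1. Mean S100a8 was 4.06 CPM in the first and 52.0 CPM in the second kind, and mean Csf3r 14.1 and 82.0 CPM. The sham group of 48 h holds 2 animals with the first ending and 3 with the second. In these sham animals mean S100a8 was 0.34 CPM in the first and 1.05 CPM in the second kind, and mean Csf3r 2.82 and 6.33 CPM. Of the 10 genes only Fpr1 did not have its lower sham mean in the first kind (0.04 and 0.03965 CPM). Within the R1 libraries (3 against 3) all 10 genes were called, with log2 fold changes of 3.31 to 6.83, where 3.52% of all genes were called in either direction. Within the R1_001 libraries (2 against 2) all 10 lay above sham by 1.09 to 4.53, 8 had an unadjusted p under 0.05 and none was called by edgeR, where 0.102% of all genes were called. Mitochondrial genes took 3.42% and 3.63% of the counts in the 2 low animals and 2.14% to 2.37% in the 3 high ones. The part of the ending and of this share in the gap was not tested.

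**Figure D2:**
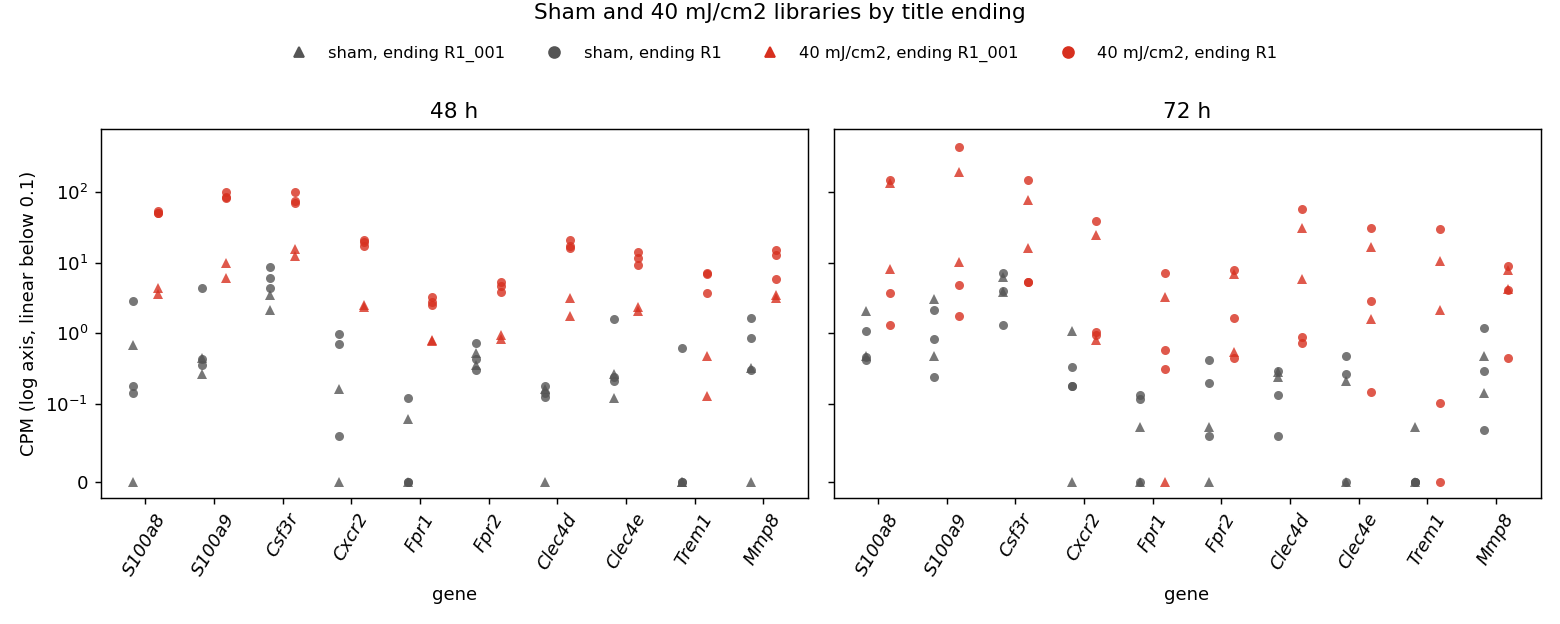
CPM of the 10 genes in every sham and 40 mJ/cm2 library at 48 h and 72 h, on a log axis that is linear below 0.1, with triangles for title ending R1_001 and circles for R1. At 48 h the triangles of 40 mJ/cm2 lie below its circles for all 10 genes. At 72 h 1 triangle and 1 circle of 40 mJ/cm2 are the highest for all 10 genes.

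At 72 h the level after 40 mJ/cm2 differed widely between animals. S100a8 stood at 137, 8.04, 3.74, 149 and 1.32 CPM and S100a9 at 192, 10.2, 4.78, 439 and 1.76 CPM. The sham animals of 72 h stood between 0.415 and 2.06 CPM for S100a8. Replicates 1 and 4 were the 2 highest for all 10 genes, with the narrowest gap to the others for Mmp8 (7.87 and 9.06 CPM against 4.29, 4.05 and 0.441 CPM), and for S100a8 replicate 5 fell within the sham range. The log2 fold changes were 6.03 ± 1.16 for S100a8 (edgeR adjusted p = 0.0135) and 6.42 ± 1.24 for S100a9.

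Csf3r stood at 78.9, 16.3, 5.40, 152 and 5.29 CPM at 72 h after 40 mJ/cm2, and 2 of these 5 animals lay within the sham range, whose top was 7.21 CPM. Clec4d stood at 31.4, 5.89, 0.727, 57.8 and 0.881 CPM, all above the sham animals at 0.0593 to 0.295 CPM, with a log2 fold change of 6.61 ± 1.12 (edgeR adjusted p = 0.00691). Fpr2 was the other gene whose groups did not overlap at 72 h, with 0.441 to 7.88 CPM against at most 0.413 CPM. Of all genes tested, 0.792% had every irradiated animal above every sham animal at 72 h. Cxcr2 was above the sham range in only 2 of 5 animals (25.1 and 39.2 CPM). Trem1 had 447 counts in the 40 mJ/cm2 group and 1 in the sham group, a 762-fold ratio after scaling to library totals, with an exact 95% interval of 136 to 30150 for counting error only. Fpr1, Clec4e and Mmp8 had log2 fold changes of 5.03 ± 1.08, 5.69 ± 1.13 and 3.50 ± 0.70.

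The calls at 72 h depended on single libraries. edgeR called 1 of the 10 (Clec4d) without 40 mJ/cm2 replicate 4, and 2 (Clec4d and Trem1) without 40 mJ/cm2 replicate 1. Without sham replicate 2, 4 or 5 it called 3, 2 and 4. Every fold change stayed above 0 in these fits, with Csf3r lowest at 2.44 without 40 mJ/cm2 replicate 4. DESeq2 called 6 of the 10 at 72 h and gave no adjusted p for S100a9, Cxcr2, Clec4d and Trem1. Within either title ending alone edgeR called none of the 10 at 72 h, where it called 0.0589% of all genes in the R1_001 and 0% in the R1 libraries. All 10 lay above sham in both with an unadjusted p under 0.05.

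**Figure D3:**
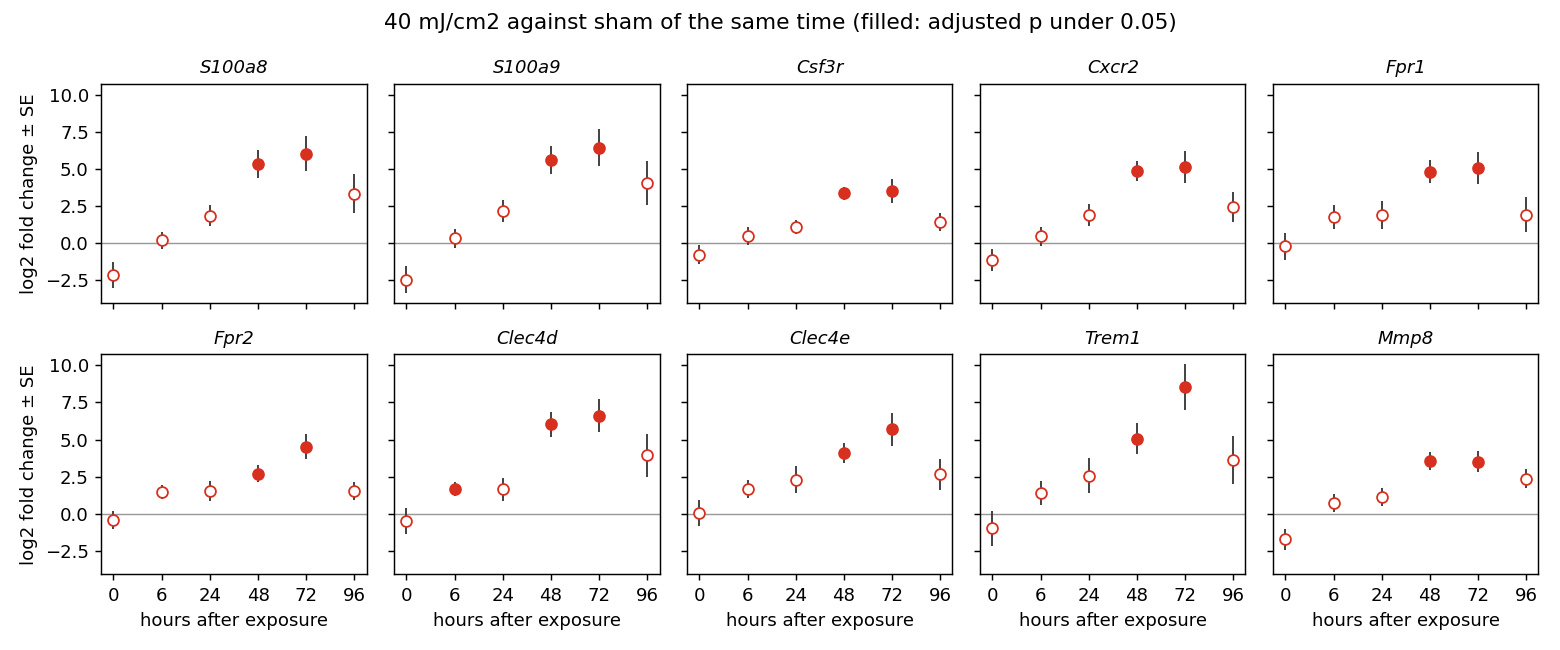
Log2 fold change of 40 mJ/cm2 against sham at each time for the 10 genes, with bars of 1 SE and filled points where the edgeR adjusted p was under 0.05. All 10 points are filled at 48 h and 72 h, 1 (Clec4d) at 6 h, and none at 0, 24 or 96 h. The Trem1 point at 72 h rests on 1 count in the sham group.

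At 6 h after 40 mJ/cm2 edgeR called Clec4d only, where 2.14% of all genes were called higher. Clec4d stood at 14.5, 18.1, 13.2, 11.8 and 15.1 CPM, against 1.88, 7.09, 5.62, 7.50 and 1.47 CPM in sham, and the groups did not overlap (1.68 ± 0.49, adjusted p = 0.0459). DESeq2 also called 1. Clec4e ran from 6.01 to 18.6 CPM against 1.30 to 5.64 CPM in sham, with a log2 fold change of 1.67 ± 0.60 that was not called (adjusted p = 0.123). Fpr2 ran from 2.69 to 4.40 CPM against 0.346 to 3.10 CPM (1.48 ± 0.50, adjusted p = 0.094). S100a8 ran from 8.90 to 19.4 CPM against 3.08 to 25.4 CPM in sham, with a log2 fold change of 0.20 ± 0.57, and S100a9 had 0.32 ± 0.63. Clec4d and Clec4e were the 2 genes of the 10 whose irradiated animals all lay above every sham animal at 6 h, as 3.12% of all genes did. The call of Clec4d was lost in 7 of 10 fits that left out 1 library, namely sham replicate 1, 3 or 5 or 40 mJ/cm2 replicate 1, 2, 3 or 5.

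The 40 mJ/cm2 effect was then compared between times in 1 fit of all libraries. At 6 h it was smaller than at 48 h for S100a8 (by -5.35 ± 1.34 on the log2 scale, edgeR adjusted p = 0.0195), S100a9 (-5.38 ± 1.40, adjusted p = 0.0277) and Cxcr2 (-4.58 ± 1.18, adjusted p = 0.0245). These 3 were called lower, where 0.916% of all genes were. The difference holds the change of the sham level as well. In a fit of sham animals alone they were higher at 6 h than at 48 h by 3.93 ± 0.99, 3.61 ± 1.09 and 3.00 ± 0.90. None of these sham differences was called. Summed calprotectin had means of 28.8 CPM in sham and 31.9 CPM after 40 mJ/cm2 at 6 h. At 48 h these means were 1.95 and 89.8 CPM. Csf3r (-2.97) and Clec4d (-4.61) had adjusted p-values of 0.0673, and Fpr2 (-1.36) and Clec4e (-2.49) were also not called. At 24, 72 and 96 h against 48 h edgeR called none of the 10, where 0%, 0% and 0.0268% of all genes were called lower. Unadjusted p-values under 0.05 numbered 7, 0 and 3 of the 10, and 464, 163 and 1716 over all genes tested, in either direction.

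At 24 h after 40 mJ/cm2 all 10 genes lay above sham and none was called by edgeR, where 1.65% of all genes were called higher. Of the 10, 8 had an unadjusted p under 0.05, as had 3066 of all genes tested, in either direction. DESeq2 called S100a9 alone. S100a9 stood at 1.84, 9.59, 5.82, 1.87 and 19.6 CPM, against 0.68 to 3.02 CPM in sham, and 2 irradiated animals lay within the sham range (edgeR log2 fold change 2.14 ± 0.73, adjusted p = 0.115). Cxcr2 was the only gene of the 10 whose irradiated animals all lay above the sham animals at 24 h, with 1.62 to 3.26 CPM against 0.23 to 1.29 CPM (1.89 ± 0.76). Of all genes tested 2.09% did so.

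At 96 h none of the 10 was called after 40 mJ/cm2 by edgeR (n = 4 against 5), where 0.118% of all genes were called higher. Unadjusted p-values under 0.05 numbered 9 of the 10, and 885 over all genes tested, in either direction. DESeq2 called Mmp8 alone. S100a8 stood at 5.10, 6.07, 0.871 and 75.2 CPM, and sham replicate 2 at 12.3 CPM against 0.191 to 1.72 CPM in the other shams. Replicate 4 of 40 mJ/cm2 was the highest of its group for all 10 genes. Of the 10 genes, Mmp8 alone had every irradiated animal above every sham animal, as 1.86% of all genes did, with 4.95, 4.23, 1.89 and 5.52 CPM against 0 to 1.58 CPM (edgeR log2 fold change 2.37 ± 0.62, adjusted p = 0.261).

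**Figure D4:**
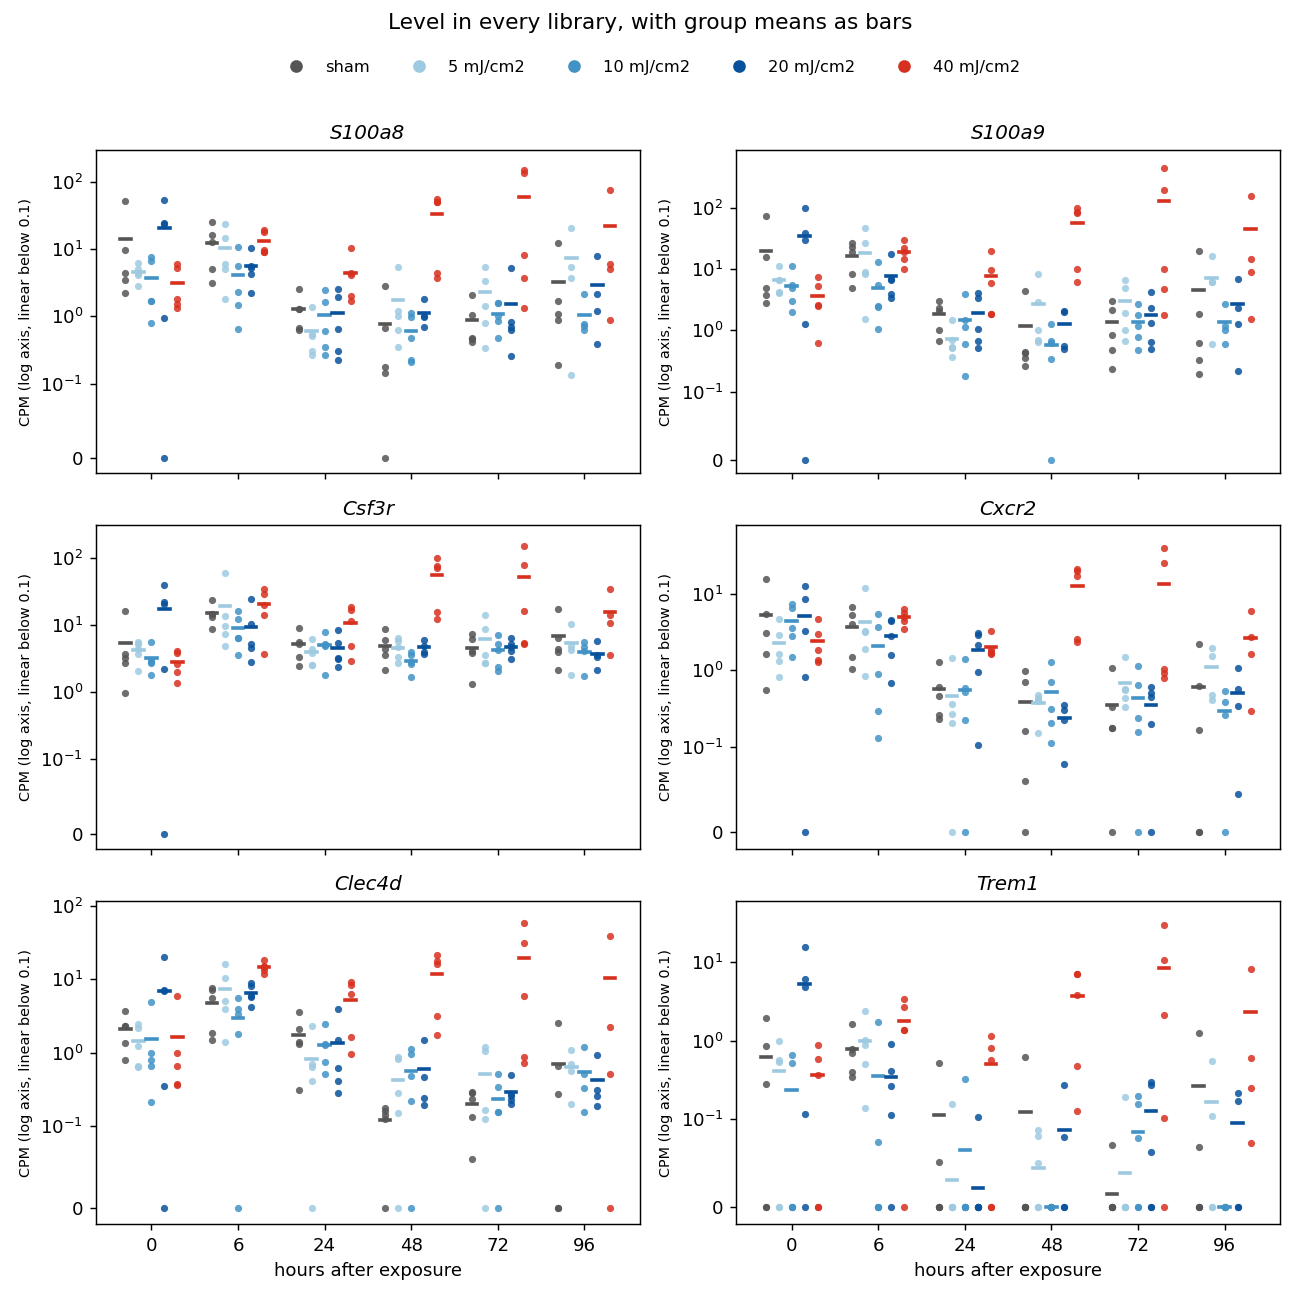
CPM of S100a8, S100a9, Csf3r, Cxcr2, Clec4d and Trem1 in every library (points) with group means (bars), by hours after exposure and dose, on a log axis that is linear below 0.1. From 24 h on the 40 mJ/cm2 means are the highest of each time, and at 0 h 1 sham animal reaches 51.4 CPM of S100a8.

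The lower doses did not move the 10 genes past the threshold. At 5 and 10 mJ/cm2 edgeR called none of the 10 at any time, where 0% of all genes were called higher at each time. At 20 mJ/cm2 it also called none, where the share of all genes called higher was 0.161% at 6 h, 0.0696% at 24 h, 0.428% at 48 h and 0% at 0, 72 and 96 h. Unadjusted p-values under 0.05 over these 18 comparisons numbered at most 4 of 10, at 20 mJ/cm2 and 0 h. In that comparison 1045 of all genes tested had an unadjusted p under 0.05, in either direction. DESeq2 called none of the 10, with no adjusted p for 1 to 10 members in 9 of these comparisons. At 48 h S100a8 stood at 0.96, 1.80, 0.689 and 1.01 CPM after 20 mJ/cm2 and at 0.207 to 1.12 CPM after 10 mJ/cm2, within the sham range. After 5 mJ/cm2 replicate 1 reached 5.49 CPM and the others 0.352 to 1.20 CPM. Trem1 had no count in any animal after 10 mJ/cm2 at 48 h or 96 h.

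The step between the 2 highest doses was tested directly. At 48 h all 10 genes were higher after 40 than after 20 mJ/cm2, where 3.57% of all genes were called higher, with log2 differences of 3.22 ± 0.63 (Mmp8) to 6.14 ± 0.86 (Fpr1). At 72 h 7 were called, where 0.364% of all genes were, and Fpr2, Clec4e and Mmp8 were not (adjusted p = 0.05, 0.0554 and 0.337). None of the 7 was called without 40 mJ/cm2 replicate 1 or 4, or without any 1 of the 5 libraries of 20 mJ/cm2. At 0, 6, 24 and 96 h edgeR called none higher, where 0%, 0%, 0.0482% and 0.00535% of all genes were, and 8, 5, 9 and 9 members had an unadjusted p under 0.05. At 0 h those 8 were lower after 40 than after 20 mJ/cm2. Of all genes tested, 395, 1008, 1998 and 1741 had an unadjusted p under 0.05 at 0, 6, 24 and 96 h, in either direction.

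Over the 4 irradiated groups the slope per doubling of dose was called upward for 9 of the 10 at 48 h, all but Fpr2 (0.79 ± 0.24, edgeR adjusted p = 0.0675), where 2.73% of all genes were called upward. Trem1 had the steepest slope (2.88 ± 0.41) and Csf3r 1.15 ± 0.21. At 72 h 8 were called, where 0.578% of all genes were, and Csf3r and Mmp8 were not. Leaving out 40 mJ/cm2 replicate 4 gave none at 72 h, and leaving out 40 mJ/cm2 replicate 1 or 5 mJ/cm2 replicate 4 gave 1. From 2 to 5 were called without 5 mJ/cm2 replicate 1 or 2, any 1 of the libraries of 10 mJ/cm2, or 20 mJ/cm2 replicate 2. At 24 h S100a9 (1.09 ± 0.23) and Fpr2 (0.99 ± 0.22) were called, where 0.712% of all genes were. These calls numbered 0 to 5 when 1 library was left out, with 0 without 5 mJ/cm2 replicate 4 or 40 mJ/cm2 replicate 2 or 5, and 5 without 5 mJ/cm2 replicate 5. At 0, 6 and 96 h none was called, where 0%, 0.755% and 0.0375% of all genes were. Unadjusted p-values under 0.05 numbered 0, 2 and 5 of the 10, and 363, 2217 and 761 over all genes tested, in either direction. The S100a8 means at 5, 10 and 20 mJ/cm2 lay at 1.74, 0.603 and 1.11 CPM at 48 h, so the slope describes a step at 40 mJ/cm2 and not an even rise.

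The sham animals themselves were not alike across times. S100a8 stood at 2.19, 4.45, 51.4, 3.52 and 9.85 CPM in sham skin at 0 h and at 3.08, 16.0, 12.7, 25.4 and 5.02 CPM at 6 h, against at most 2.84 CPM at 24, 48 and 72 h. In a comparison added after these levels were seen, edgeR called 4 of the 10 higher in sham skin at 0 h than at 48 h. Of all genes, 6.34% were called in either direction. The 4 were S100a8 (3.90 ± 1.01, adjusted p = 0.0217), S100a9 (3.72 ± 1.11), Cxcr2 (3.31 ± 0.93) and Clec4d (3.73 ± 0.85). Leaving out 1 library gave 1 to 5 calls, with 1 without sham replicate 3 of 0 h or without replicate 1, 2 or 4 of 48 h, and 2 without replicate 3 of 48 h. Csf3r differed by 0.15 ± 0.58 and was not called. At 6 h against 48 h only Clec4d was called (4.83 ± 0.85, adjusted p = 0.0231), where 0.0428% of all genes were called in either direction. The call of Clec4d was lost without replicate 2, 3 or 4 of 6 h or any 1 of the 5 shams of 48 h.

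At 0 h, directly after exposure, edgeR called none of the 10 after 40 mJ/cm2, where 0% of all genes were called higher. S100a8 stood at 1.50, 1.35, 5.91, 5.27 and 1.82 CPM, a mean of 3.17 against 14.3 CPM in sham, with a log2 fold change of -2.14 ± 0.88 (unadjusted p = 0.0224, adjusted p = 0.989). Unadjusted p-values under 0.05 numbered 3 of 10, all with a fold change below 0, and DESeq2 called none. Over all genes tested they numbered 832, in either direction. After 20 mJ/cm2 at 0 h S100a8 stood at 24.3, 23.2, 0.935, 53.6 and 0 CPM. The animal at 0 is the library of 0.204 M counts, in which no count of any of the 10 genes was seen. It is 1 of the 5 libraries whose titles mark them as repeats. Csf3r in the same animals stood at 20.7, 22.3, 2.22, 40.0 and 0 CPM and Trem1 at 4.86, 6.13, 0.117, 15.3 and 0 CPM, and neither was called.

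Ligands of these receptors were read from a list of 13 genes. At 48 h after 40 mJ/cm2 10 of the 13 rose and none fell, where 3.97% of all genes were called higher. The median log2 fold change was 4.52, the same with genes at 0 in all sham animals set to their bound of 3 counts over the group. Csf3, which encodes G-CSF, rose by 4.78 in log2, from at most 0.04 CPM in sham to 0 to 1.70 CPM. Cxcl5, a CXCR2 ligand, was at 0 in all sham animals and at 1.99 to 102 CPM after 40 mJ/cm2, at least 903-fold higher. Cxcl3 and Saa2 were also at 0 in all sham animals and were at least 31.9-fold and 108-fold higher. Saa3, a serum amyloid A gene expressed outside the liver, rose by 10.54 ± 0.83, from 0 to 0.617 CPM in sham to 71.7 to 957 CPM. Anxa1 (0.12) and Pglyrp1 (0.80), which encode ligands of FPR2 and TREM1, were not called. Sap130 (0.14) was not called either. It was listed for a Mincle ligand of the same name, which another gene encodes. At 6 h 2 of the 13 rose, Csf3 (4.54 ± 1.28) and Ppbp (2.00 ± 0.49), where 2.14% of all genes were called higher.

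Of 5 genes of calprotectin receptors and their partners, none passed the test at 48 h after 40 mJ/cm2. Tlr4 had a log2 fold change of 0.43 (edgeR adjusted p = 0.329) and stood at 15.4 ± 2.12 CPM in sham and 20.7 ± 4.50 CPM after 40 mJ/cm2 (SD, n = 5). Cd14 rose at 6 h (1.54 ± 0.40, adjusted p = 0.0215) and was not called at 48 h. Of 10 adaptor and signalling genes, 5 rose at 48 h and none fell, where 3.97% of all genes were called higher. Among the 5, Fcer1g, the adaptor of Mincle and MCL, rose by 1.21 ± 0.24 and Card9, which acts below Syk, by 1.24 ± 0.34. Tyrobp, the adaptor of TREM1, had 0.94 and was not called. None of the 11 other S100 genes was called at 48 h or 72 h.

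Of 17 further genes listed for neutrophils 13 passed the filter. At 48 h after 40 mJ/cm2 8 of these rose, where 3.97% of all genes were called higher. The median log2 fold change of the 13 was 3.00. Stfa2 (6.60 ± 0.95), Lcn2 (4.29 ± 0.46) and Acod1 (4.21 ± 1.04) were among the 8, and Stfa2l1, at 0 in all sham animals, was at least 23.6-fold higher. Which cells held the RNA of the 8 genes was not tested. The stefin genes share sequence, so the split of reads among them is uncertain. Of the 6 markers set for neutrophils, Ly6g had counts in 2 of 5 animals after 40 mJ/cm2 and in none of the shams, and Ngp in 1 and none. Ltf, Cd177 and Retnlg stood at means of 0.132, 0.439 and 0.791 CPM after 40 mJ/cm2, and Mmp9 at 8.35 CPM in sham and 8.88 CPM after 40 mJ/cm2. None of the 6 was called, and any of them that did not pass the filter was not tested. Of the 4 primary granule genes 1 was tested, and it was not called. The 4 summed to 0.537 to 1.74 CPM after 40 mJ/cm2 and 0.595 to 1.32 CPM in sham.

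Genes of other cell types moved as well, and their part in the rise of the 10 genes was not tested. At 48 h 5 of 12 monocyte and macrophage markers rose, led by Fcgr1 (1.82 ± 0.32), and the 12 summed to 1195 to 2317 CPM after 40 mJ/cm2 and 1102 to 1585 CPM in sham. Of 11 genes of stressed keratinocytes 9 rose, and their sum was 2553 to 7344 CPM against 235 to 455 CPM. Of all genes tested 3.97% were called higher and 3.76% lower at 48 h. Of 10 skeletal muscle genes 7 fell, with sums of 14057 to 27274 CPM against 34393 to 56208 CPM. With the muscle level as a further term all 10 calls at 48 h were still made. That level itself differed between sham and 40 mJ/cm2 skin, so this fit cannot separate it from the dose. Of 5 T cell markers 3 fell, of 2 Langerhans markers 1 fell (Cd207, -1.87 ± 0.34), and none of 6 mast cell, 2 eosinophil or 5 red cell genes was called.

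Across the 30 group means of log2 CPM, S100a8 and S100a9 had a Pearson correlation of 0.988. With the 10 genes themselves left out of the ranking, the 5 most like S100a8 of 14021 candidates included Cxcl2 (0.876), Mcemp1 (0.874), Lcn2 (0.851) and Il1b (0.843). Those most like Csf3r were Serpina3n (0.922), Upp1 (0.893), Ccr1 (0.888), Itgam (0.877) and Nlrp3 (0.877). These values describe the 30 groups, which share libraries of unequal depth, and no p is given. The summed calprotectin CPM per summed CPM of the 7 receptors had a median of 0.102 in sham skin at 48 h, 0.891 after 40 mJ/cm2 at 48 h and 0.707 after 40 mJ/cm2 at 72 h. In sham skin at 0 and 6 h, the medians were 0.886 and 0.997.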

How the data were processed

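Whole-skin RNA was sequenced from poly(A) libraries as single reads of 75 bases. The authors deposited a table of expected counts for 55416 genes, of which 52083 had a symbol here, and 12.6% of the values were not whole. The submitters' processing notes name STAR 2.7.10a, GRCm39, fastp 0.23.0, DESeq2 1.36.1 and bcl2fastq 2.20.422. For the counting program, annotation and strand setting, nothing was given in the sources used here. After rounding, the counts went into edgeR 4.0.16 (R 4.3.3, limma 3.58.1) after TMM scaling and filterByExpr, with the 5 dose groups of a time in 1 fit and the title ending as a covariate. Tests are two-sided with Benjamini-Hochberg adjustment over 18677 genes. DESeq2 1.42.0 was an alternative, beside other scaling, no filter, libraries of 1 ending, a muscle level covariate and 1 fit of all libraries. Further alternatives left out the libraries titled repeat, or each library in turn. Log2 CPM used a prior count of 2. Rows without a symbol held 0.0906% of the counts. The script was tested on simulated data.

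Groups follow the labels, and replicate numbers only follow accession order. The 10 genes and the lists were chosen with earlier results of these data known. All 10 are named, and of each list up to 4 called genes with the largest fold change and the first listed gene. Genes named beyond that were chosen after their values were seen. Of the 5 genes most like S100a8 across group means, 1 is not reported here. Counting intervals cover counting error only.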

Additional observations from a re-analysis of the deposited data

Results flagged for a closer look

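Of 298 combinations of a gene and a group, 24 held a library that lay apart from the rest of its group. The measure was Dixon's criterion at the 95% level, which chance meets in about 1 of 20 groups of normally spread values. Several marks for Fpr1 and Trem1 fell in groups where every other library held no count. There any count meets the criterion, so the rate of 1 in 20 does not hold for them. Sham replicate 5 at 48 h stood apart and high for S100a9 (4.44 CPM), Clec4e (1.60 CPM) and Trem1 (0.617 CPM), and sham replicate 1 of 48 h low for Clec4d (0 CPM). Sham replicate 2 at 96 h was high for Fpr1 (1.10 CPM) and Trem1 (1.26 CPM). Cxcr2 was high in 40 mJ/cm2 replicate 3 at 24 h (3.26 CPM) and low in 5 mJ/cm2 replicate 5 at 48 h (0.151 CPM).

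Fpr1 was also high in replicate 4 of 20 mJ/cm2 at 48 h (0.0775 CPM), of 10 mJ/cm2 at 72 h (0.188 CPM), of 20 mJ/cm2 at 72 h (0.1003 CPM) and of 5 mJ/cm2 at 96 h (0.0782 CPM). Fpr2 was low in 5 mJ/cm2 replicate 1 at 6 h (0.279 CPM). Trem1 at 6 h was high in 10 mJ/cm2 replicate 4 (1.73 CPM) and at 0 in 40 mJ/cm2 replicate 4. At 24 h Trem1 was high in sham replicate 3 (0.517 CPM), 5 mJ/cm2 replicate 5 (0.155 CPM), 10 mJ/cm2 replicate 3 (0.325 CPM) and 20 mJ/cm2 replicate 4 (0.106 CPM). At 72 h it was high in sham replicate 1 (0.0709 CPM) and 5 mJ/cm2 replicate 3 (0.191 CPM). Mmp8 was low in 20 mJ/cm2 replicate 3 at 48 h (0.394 CPM) and in 40 mJ/cm2 replicate 5 at 72 h (0.441 CPM), and high in 10 mJ/cm2 replicate 3 at 96 h (1.32 CPM).

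The effect of 40 mJ/cm2 differed between 6 h and 48 h for 3 genes in the edgeR test of that difference. It did so by -5.35 for S100a8, -5.38 for S100a9 and -4.58 for Cxcr2 on the log2 scale. In sham skin the same 3 genes were higher at 6 h than at 48 h, by 3.93, 3.61 and 3.00, though not called.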

How the results depend on the processing

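No paired analysis was possible because the labels number every animal individually and replicate numbers only follow accession order. Of 242 counts of called members under alternatives other than leaving out a library, 227 stayed within 1.5 times the count reported, and of 427 without 1 library, 371 did. A count of 0 that remained 0 was included among these, and most comparisons had 0 calls as reported. The totals therefore say little of the comparisons that had calls. All 10 genes were called at 48 h after 40 mJ/cm2 under every alternative run except the R1_001 libraries alone, which gave 0. For 40 mJ/cm2 against sham at 6 h (1 as reported) the count was 2 with no filter, 2 with the muscle level, 0 within either ending and 0 in 1 fit of all libraries. At 72 h it was 6 with DESeq2 and 0 within either ending, at 24 h 1 with DESeq2, and at 96 h 1 with DESeq2 and 1 in the fit of all libraries. With no filter 3 were called higher after 20 mJ/cm2 at 0 h, 2 lower after 40 mJ/cm2 at 0 h and 1 lower after 10 mJ/cm2 at 6 h. The cause was not tested.

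Without 1 library at a time the counts for 40 mJ/cm2 against sham were 0 to 1 at 6 h, 10 at 48 h and 1 to 10 at 72 h. The slope gave 0 to 1 at 6 h, 0 to 5 at 24 h, 7 to 10 at 48 h and 0 to 10 at 72 h. The comparison of 40 with 20 mJ/cm2 gave 10 at 48 h and 0 to 9 at 72 h. Sham skin at 0 h against 48 h gave 1 to 5, and at 6 h against 48 h 0 to 1. The S100a8 fold change at 6 h ran from -0.0639 to 0.4432 without 1 library and changed sign to -0.70 in R1 libraries, -0.0091 with the muscle level, -0.05 and -0.03 without sham replicates 1 and 5, and -0.0639 without 40 mJ/cm2 replicate 3. S100a9 at 6 h was -0.28 in R1 libraries. At 96 h R1_001 libraries gave -0.28 for S100a8, -0.14 for S100a9, -0.33 for Fpr1 and -0.11 for Trem1, and Fpr1 ran from -0.32 (without 40 mJ/cm2 replicate 4) to 3.44 (without sham replicate 2). Leaving out libraries was not run for the 40 mJ/cm2 effect at other times minus 48 h. The comparison of sham times and the left-out libraries for the slope and for 40 against 20 mJ/cm2 were added after seeing the data. Fpr1 and Trem1 rest on few counts in most groups.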
